A study of Mus musculus with 8 samples.

Results

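The MYC and MAX network is described here as 10 gene names, namely Myc, Mycn, Max, Mxd1, Mxd3, Mxd4, Mxi1, Mnt, Mga and Miz1, looked up by name in a table of RNA-seq read counts from mouse MLL-AF9 leukemia cells. Of these, 8 were found among the 12823 rows of the table, and all 8 passed the filter on low counts that kept 12494 genes. No row carried the name Mycn or Miz1, and both are not analysed here under those names. The network was selected on the Myc level of 1 library, aggressive AML replicate 3, which had been seen to be low, so that value and any difference that rests on it are a description and were not tested.

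RNA was measured in 8 libraries, 4 of new AML and 4 of aggressive AML. New AML cells were mouse bone marrow progenitors that carried a retrovirally introduced MLL-AF9 fusion gene, which is driven by the vector and expressed together with GFP, and that had produced leukemia in sublethally irradiated recipients. Aggressive AML cells are described as derived from the remaining cells of that leukemia by 5 serial transplantations into mice that had not been irradiated. All recipients were C57BL/6 mice, given in the study's methods as 8 to 12 weeks old, and in both groups RNA came from GFP+ cells sorted from bone marrow. The comparison asked how expression differed between new AML and aggressive AML, described as the leukemia before and after its passage through mice. The study describes the mice of these groups as male, and the labels call the libraries biological replicates without saying whether each came from a separate mouse, so the p-values measure the spread between these samples, which may be partly technical. The labels record neither a batch nor a date, and a batch that followed the groups cannot be told apart from them.

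The total count lay between 7805544 and 9697777 per library, and 1 count was worth 0.103 to 0.130 CPM, the unit in which counts are scaled by the total of their library. Ddx3y, Eif2s3y, Kdm5d and Uty, which lie on the Y chromosome, together had 2315 to 2574 counts in each new AML library and 0 in each aggressive AML library. The description of the groups does not mention this difference, and its part in the differences below was not tested. Whether the aggressive AML cells descend from the new AML cells, as described, was not tested either. Aggressive AML replicate 3 stood apart, since it held the highest or lowest value of the 8 libraries for 43.9% of all tested genes, against 16.5% to 30.8% for the other libraries. Across all 12494 tested genes, the edgeR quasi-likelihood test called 2296 (18.4%) at a Benjamini-Hochberg adjusted p under 0.05, of which 8.15% of the tested genes were higher and 10.2% lower in aggressive AML. All 10 markers of MLL-AF9 myeloid cells, among them Hoxa9, Meis1 and Kit, were in the table, and their summed level was 6109 to 6775 CPM in new AML and 6398 to 8278 CPM in aggressive AML. Of these markers 5 were called higher, among them Kit (log2 fold change 0.65) and Mef2c (0.62), and 2 lower, Hoxa10 (-0.59) and Itgam (-0.61), and their part in the network differences was not tested.

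MYC is a transcription factor that binds DNA only as a dimer with MAX, and the dimer recognises the E-box CACGTG in the promoters of genes for ribosome production, metabolism and cell growth. MAX also pairs with the MXD proteins, MXI1, MNT and MGA, and these dimers occupy the same motif and mostly repress, the MXD, MXI1 and MNT dimers through the SIN3 corepressor and its histone deacetylases, so that the network is often described as a balance of MYC against the other partners of MAX. In blood-forming cells high Myc is known to accompany proliferation, and a rise of some MXD proteins is known to accompany differentiation.

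The E-box was searched in the 300 bases around each annotated start site (250 before to 50 after it, RefSeq, GRCm38.p6), and the windows that held it are printed because the same motif is bound by every dimer of the network. The motif CACGTG is its own reverse complement, so 1 search covered both strands. It was found for 3 of the 7 members with an entry, Max, Mxd4 and Mnt, against 1148 of 9542 (12%) genes of the count table that had an entry and 2349 of 32851 (7.15%) promoter windows of the genome. Of the MYC targets described below that were also searched, it was found for the nucleolar genes Pes1, Wdr43 and Imp4, and not for Ncl, Nop58, Ddx21, Wdr74 and Odc1. Each sequence reads from 5′ to 3′ on the strand of its gene, and the capitals mark the E-box.
Max: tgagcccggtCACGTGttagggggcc
Mxd4: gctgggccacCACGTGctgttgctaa
Mnt: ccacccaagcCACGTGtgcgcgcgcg
Pes1: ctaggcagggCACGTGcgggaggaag
Wdr43: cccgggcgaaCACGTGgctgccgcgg
Imp4: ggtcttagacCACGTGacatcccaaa
The Max window lies at chr12:76962236-76962261 on the minus strand, with the E-box starting 3 bases before the start site. The Mxd4 window lies at chr5:34187914-34187939 on the minus strand, 219 bases before it, and the Mnt window at chr11:74830791-74830816 on the plus strand, 123 bases before it. The windows of Pes1 (chr11:3963967-3963992), Wdr43 (chr17:71616222-71616247) and Imp4 (chr1:34439698-34439723) are on the plus strand. In Pes1 and Wdr43 the E-box starts at bases 3 and 18, counting the start site as the first base. In Imp4 it starts 121 bases before the start site. The letters CACGTG were not in the windows of Mxd1, Mxd3, Mxi1 and Mga, and a match is a description of the sequence and not a measured binding site.

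Myc was lower in every aggressive AML library than in any new AML library, and by far the lowest in aggressive AML replicate 3. Myc lies on chromosome 15 at 61985391 to 61990374 (GRCm38, GENCODE). It measured 216, 219, 198 and 185 CPM in new AML replicates 1 to 4, and 131, 176, 51.6 and 174 CPM in aggressive AML replicates 1 to 4. The groups did not overlap, but the gap between the lowest new AML library (185 CPM) and the highest aggressive AML library (176 CPM) was small beside the spread within aggressive AML.

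The mean was 204 ± 15.9 CPM (SD, n = 4) in new AML and 133 ± 58.1 CPM (SD, n = 4) in aggressive AML, a log2 fold change of -0.62 that is given without a test. Aggressive AML replicate 3 held 398 reads of Myc, against 1088 to 1529 in the other aggressive AML libraries, and its level was 0.322 times their mean. Tested without this library, Myc fell by 0.35 on the log2 scale (SE 0.10, 95% interval -0.56 to -0.13, adjusted p = 0.0296 in edgeR, where 16.6% of 12343 genes were called), with a mean of 160 ± 25.3 CPM (SD, n = 3) in aggressive AML. The choice named aggressive AML replicate 3 alone, but a level is low only beside those of the other 7 libraries. Their values too were known beforehand, so this test is not independent of the choice.

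**Figure D1:**
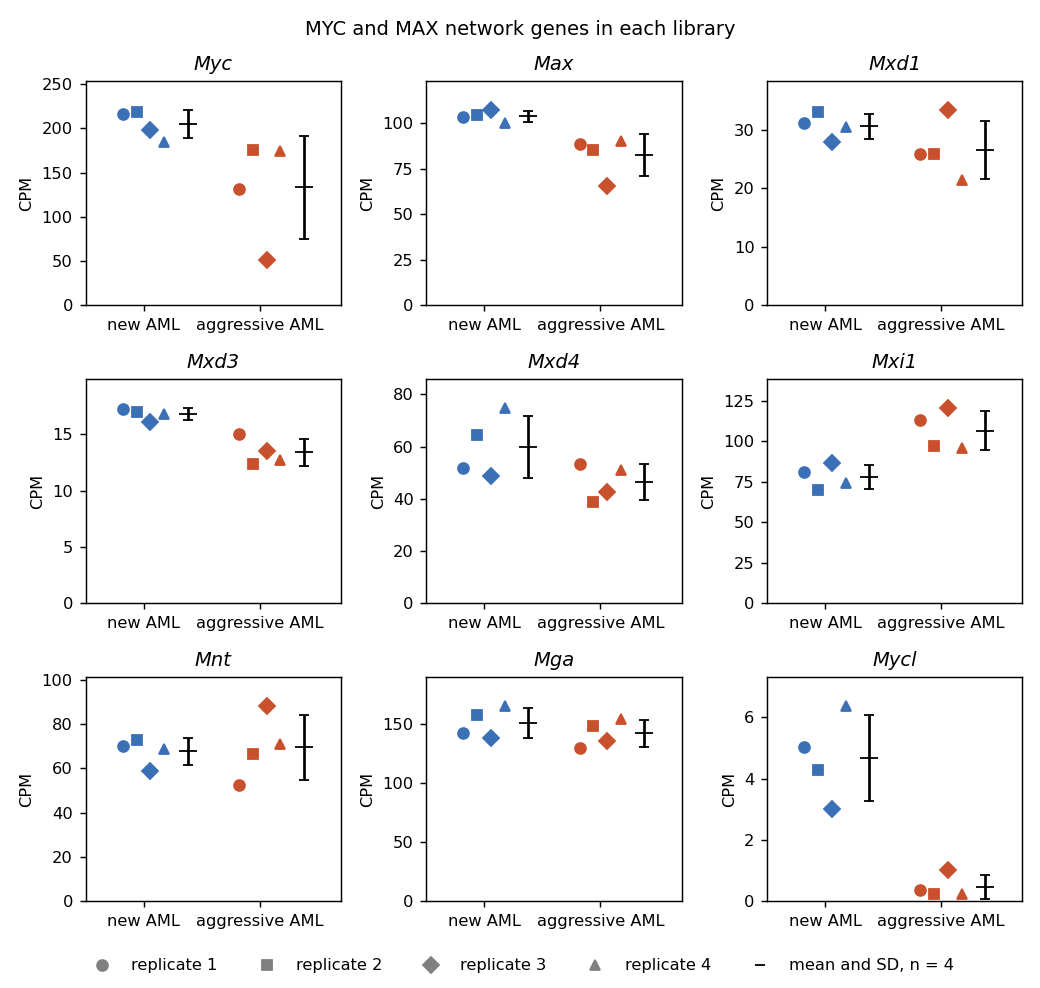
Level in CPM (vertical axes, each from 0) of the 8 network genes and of Mycl in every library, with new AML in blue, aggressive AML in red and a marker shape for each replicate. Bars are the mean and SD of 4 libraries, and Myc in aggressive AML replicate 3 lies at 51.6 CPM, far below the other 7 libraries.

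Max, the dimer partner that every branch of the network needs, was lower in aggressive AML, and Mxi1, a partner of MAX that opposes MYC, was higher. Among the 7 members other than Myc, 1 rose (Mxi1), 1 fell (Max) and 5 did not pass the test, that is 2 of 7 called beside 18.4% of all tested genes. Without overlap between the groups were 3 of these 7, beside 21.8% of all genes. The median log2 fold change of the 7 was -0.21, and that of all tested genes was 0.00044.

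Max measured 103, 105, 107 and 100.2 CPM in new AML and 88.4, 85.4, 65.5 and 90.5 CPM in aggressive AML. Every aggressive AML library was below every new AML library, with replicate 3 again the lowest. Max lies on chromosome 12 at 76937269 to 76962201 on the minus strand, and the E-box printed above falls at the start site of its promoter entry, which lies inside the longest RefSeq model (end at 76962323). The level fell by 0.33 on the log2 scale (SE 0.10, 95% interval -0.54 to -0.12, adjusted p = 0.0270), from 104 ± 2.87 to 82.5 ± 11.5 CPM (SD, n = 4 each). Without aggressive AML replicate 3 it fell by 0.23 (adjusted p = 0.0428). The call was lost without new AML replicate 1 (adjusted p = 0.0555), replicate 2 (adjusted p = 0.0707) or replicate 3 (adjusted p = 0.0514).

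Mxi1 measured 81.3, 70.2, 86.9 and 74.4 CPM in new AML and 113, 97.1, 120.4 and 95.8 CPM in aggressive AML. All 4 aggressive AML libraries were above all 4 new AML libraries, and here replicate 3 was the highest. Mxi1 rose by 0.45 on the log2 scale (SE 0.10, 95% interval 0.24 to 0.65, adjusted p = 0.00499), from 78.2 ± 7.41 to 107 ± 12.1 CPM, and it was called in each of the 13 alternative fits. It lies on chromosome 19 at 53310518 to 53375810 and overlaps Gm10197 and AC133451.2 on the other strand, whose reads cannot be told apart from its own without a strand setting.

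The 3 MXD genes, which encode MAX partners that repress MYC targets, were lower in aggressive AML in the mean, and none of them passed the test. Mxd4 measured 51.9, 64.3, 48.6 and 74.7 CPM in new AML and 53.3, 38.6, 42.6 and 51.2 CPM in aggressive AML. The highest values were those of new AML replicates 4 and 2, while the other libraries of both groups overlapped. Its log2 fold change was -0.37 (95% interval -0.66 to -0.069, adjusted p = 0.0799), and it passed the test in 1 of 13 alternatives, without new AML replicate 3 (adjusted p = 0.0350). Mxd4 overlaps the antisense gene Gm42846. The intervals given here are not adjusted for the number of genes tested, so that an interval can leave out 0 where the adjusted p is above 0.05.

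Mxd3, the member with the lowest CPM, measured 17.2, 17.0, 16.1 and 16.8 CPM in new AML and 15.1, 12.4, 13.5 and 12.7 CPM in aggressive AML. The groups did not overlap, and the log2 fold change was -0.32 (95% interval -0.60 to -0.049, adjusted p = 0.0941). Mxd3 overlaps Prelid1, a far more abundant gene on the other strand at 238 ± 11.6 CPM in new AML and 255 ± 8.65 CPM in aggressive AML. As the strand setting of the counting was not given, reads of the overlap cannot be told apart.

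Mxd1 measured 31.1, 33.1, 27.9 and 30.4 CPM in new AML and 25.8, 25.8, 33.3 and 21.4 CPM in aggressive AML. Aggressive AML replicate 3 was the highest of all 8 libraries, while the other 3 aggressive AML libraries lay below the new AML libraries. The log2 fold change was -0.21 (95% interval -0.48 to 0.071, adjusted p = 0.292) with all libraries. Without replicate 3 it was -0.33 (95% interval -0.57 to -0.087, adjusted p = 0.0601), which did not reach the threshold either.

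Mnt, the most widely expressed repressive partner of MAX, measured 69.9, 72.8, 58.9 and 68.9 CPM in new AML and 52.4, 66.7, 88.0 and 70.9 CPM in aggressive AML. Both the lowest and the highest library were aggressive AML, replicates 1 and 3. The log2 fold change was 0.039 (95% interval -0.23 to 0.31, adjusted p = 0.861), and without replicate 3 it was -0.090 (95% interval -0.32 to 0.14). Mga, a large MAX partner that belongs to the polycomb complex PRC1.6, measured 142, 157, 138 and 165 CPM in new AML and 130, 148, 135 and 154 CPM in aggressive AML. Aggressive AML replicates 1 and 3 lay below every new AML library and new AML replicates 2 and 4 above every aggressive AML library, while the other libraries overlapped. The log2 fold change of Mga was -0.084 (95% interval -0.26 to 0.095, adjusted p = 0.522).

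**Figure D2:**
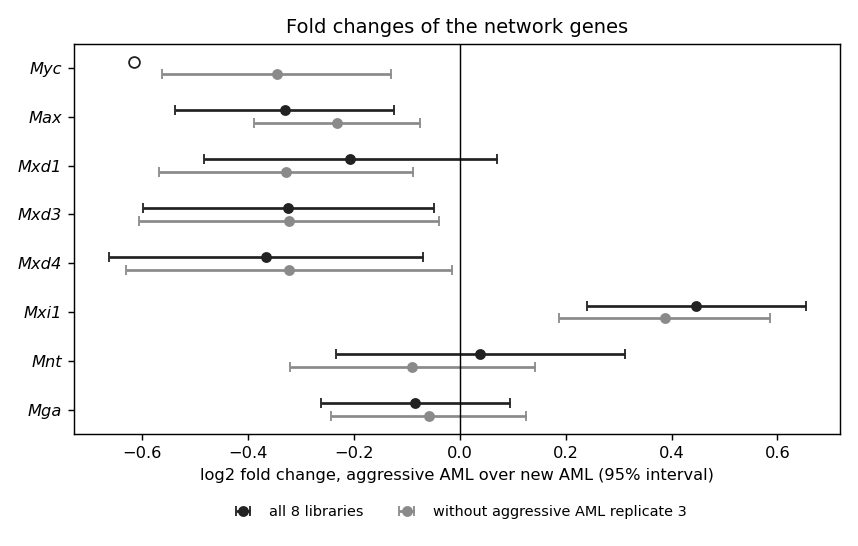
Log2 fold change of aggressive AML over new AML (horizontal axis) for each network gene, from all 8 libraries (black) and without aggressive AML replicate 3 (grey), with 95% intervals that are not adjusted for multiple testing. The open circle is Myc over all 8 libraries, -0.62, drawn without an interval because it was not tested, and Mxi1 is the gene whose intervals lie above 0.

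Aggressive AML replicate 3 differed from its group in more than Myc. It held the highest or lowest value of the 8 libraries for 4 of the 7 members other than Myc, beside 43.9% of all tested genes, being lowest for Max and highest for Mxd1, Mxi1 and Mnt. Relative to the mean of the other 3 aggressive AML libraries, its level was 0.743 times for Max, 1.39 times for Mnt, 1.37 times for Mxd1 and 1.18 times for Mxi1. Mxd3 (1.01 times), Mga (0.941 times) and Mxd4 (0.894 times) lay closer to the other libraries.

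In the same annotation Mnt is on chromosome 11 at 74830920 to 74845725 and Mga on chromosome 2 at 119897228 to 119969581, both on the plus strand. Mxd1 is on chromosome 6 at 86647042 to 86669161 and Mxd4 on chromosome 5 at 34173883 to 34187720, both on the minus strand, as is Mxd3 on chromosome 13 at 55325168 to 55329823.

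Levels of different genes were compared per length, as CPM divided by the summed exon length in kb. This length joins the exons of every annotated transcript, 2.72 kb for Myc, 6.82 kb for Mxi1, 7.07 kb for Mxd1 and 8.48 kb for Mxd4. It can exceed the length of the transcript in use and then makes a level too low. Which transcripts were in use was not tested, so the order and ratios below hold for these lengths only. In new AML Myc was highest at 75.2 ± 5.84 CPM per kb (SD, n = 4), followed by Max at 28.8 ± 0.799, Mnt at 14.6 ± 1.31, Mxi1 at 11.5 ± 1.09 and Mga at 9.80 ± 0.816 CPM per kb. Below them were Mxd3 at 7.09 ± 0.216, Mxd4 at 7.06 ± 1.41 and Mxd1 at 4.33 ± 0.302 CPM per kb. Of neighbours in this order, the libraries of Mnt and Mxi1, of Mxi1 and Mga, and of Mxd3 and Mxd4 overlapped, and the other neighbours did not. In aggressive AML the order was Myc at 49.0 ± 21.4, Max at 22.9 ± 3.20, Mxi1 at 15.6 ± 1.77, Mnt at 15.02 ± 3.17 and Mga at 9.24 ± 0.726 CPM per kb. Below them came Mxd3 at 5.66 ± 0.502, Mxd4 at 5.47 ± 0.818 and Mxd1 at 3.76 ± 0.699 CPM per kb. Here Mxi1 stood beside Mnt, with overlapping libraries, and Myc overlapped Max through replicate 3 alone.

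The sum of the repressive partners Mxd1, Mxd3, Mxd4, Mxi1 and Mnt was 44.8, 45.4, 41.9 and 46.0 CPM per kb in new AML and 44.2, 42.1, 52.1 and 43.8 CPM per kb in aggressive AML. For this sum 3 of the aggressive AML libraries lay within the range of new AML, and replicate 3 was the highest of all 8. The ratio of Myc to this sum was 1.77, 1.77, 1.74 and 1.48 in new AML and 1.09, 1.54, 0.364 and 1.46 in aggressive AML. By this measure Myc exceeded the summed partners in 7 of 8 libraries, and in aggressive AML replicate 3 the partners exceeded Myc. Per kb, Myc stood at 2.77, 2.77, 2.45 and 2.44 times Max in new AML and at 1.96, 2.72, 1.04 and 2.55 times Max in aggressive AML. These ratios use RNA levels, depend on the exon lengths used, share the Myc value that chose the genes, and were not tested.

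**Figure D3:**
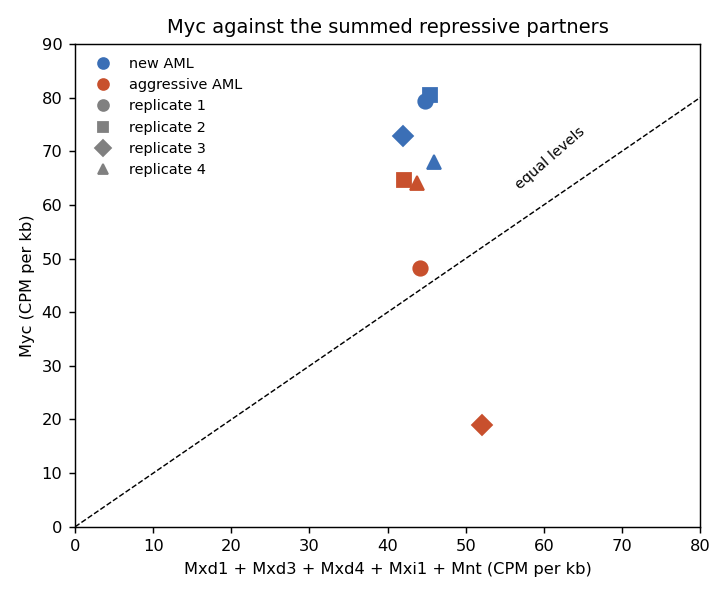
Myc level (vertical axis, CPM per kb of exon) against the summed level of Mxd1, Mxd3, Mxd4, Mxi1 and Mnt (horizontal axis, CPM per kb of exon), 1 point per library, with new AML in blue, aggressive AML in red and a marker shape for each replicate. The dashed line marks equal levels, and aggressive AML replicate 3 is the 1 library below it, at a ratio of 0.364. The position of the points beside the line depends on the exon lengths used.

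The genes whose pattern over the 8 libraries was nearest to that of Myc were found among 9288 genes with a mean of at least 10 CPM, as those with the smallest root mean square difference of centred log2(CPM + 1) values. Nearest were BC068281 (0.162), Cbfa2t3 (0.165), Cebpg (0.177), Zbtb7b (0.201) and BC037034 (0.216), beside a root mean square of 0.636 for Myc itself. Cbfa2t3, a corepressor of blood progenitors, measured 187, 187, 157 and 161 CPM in new AML and 123, 147, 60.5 and 142 CPM in aggressive AML. Cebpg, a bZIP factor of the C/EBP family, measured 73.8, 79.1, 68.1 and 81.8 CPM in new AML and 60.5, 61.2, 16.1 and 69.9 CPM in aggressive AML. As with Myc, aggressive AML replicate 3 was the lowest library for each of these genes, which the choice by likeness favours. Of the network genes Max was the nearest to Myc, at rank 417 with a difference of 0.440.

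**Figure D4:**
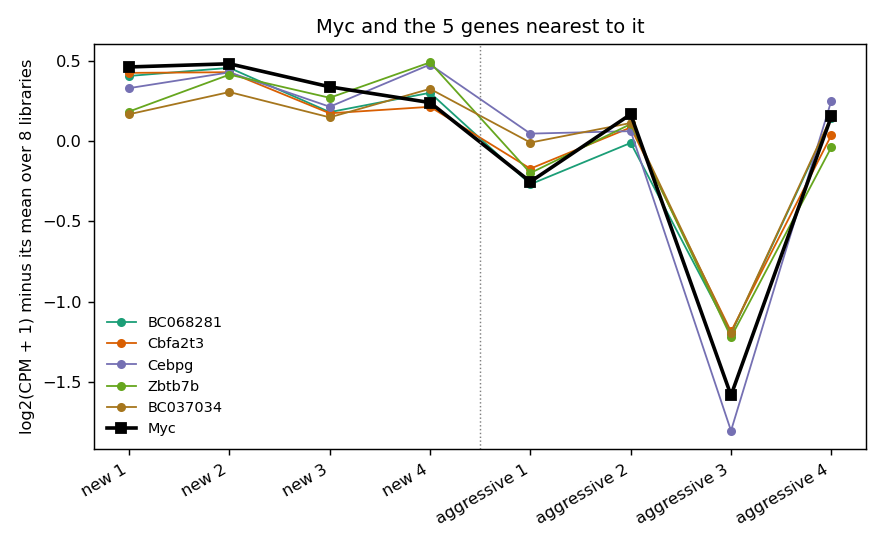
Log2(CPM + 1) minus its mean over the 8 libraries (vertical axis) for Myc (black) and the 5 genes nearest to it, in each library (horizontal axis, new AML left and aggressive AML right of the dotted line). All 6 lines drop at aggressive AML replicate 3, where Myc is at 51.6 CPM.

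Beyond the members, 164 genes that act with or under the network were listed, of which 148 were tested. Of these 20 rose and 8 fell, that is 28 of 148 beside 18.4% of all tested genes, and 19 of 148 had groups without overlap, beside 21.8% of all genes. The called count was 12, 15, 16 or 15 when new AML replicate 2, new AML replicate 4, aggressive AML replicate 1 or aggressive AML replicate 2 was left out. In the same fits 1466, 1591, 1771 and 1728 of all genes were called, against 2296 with all libraries.

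Mycl, a further MYC family gene, showed the largest difference of all the listed genes. It measured 5.03, 4.28, 3.01 and 6.35 CPM in new AML and 0.361, 0.236, 1.04 and 0.228 CPM in aggressive AML, which corresponds to 49, 36, 27 and 57 reads against 3, 2, 8 and 2 reads. Every aggressive AML library was below every new AML library, and replicate 3, lowest for Myc, was the highest of its group for Mycl. Mycl fell by 3.33 on the log2 scale (SE 0.44, adjusted p = 0.000102), and the adjusted p stayed under 0.05 in all 13 alternatives. It passed the filter on low counts through new AML, the group where it was high. Within aggressive AML only replicate 3 reached 1 CPM, so the size of its difference is partly tied to how it entered the test. The fitted level in aggressive AML was 0.0998 times that in new AML. Its reads were few beside those of Myc in both groups.

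The other 3 tested genes beside Mycl, namely Mlx and Mlxip of the parallel MLX branch, whose dimers respond to glucose, and Zbtb17, which encodes the MYC partner MIZ1 used in repression, did not pass the test. The log2 fold changes were -0.0087 for Mlx (95% interval -0.26 to 0.24), -0.16 for Mlxip (95% interval -0.42 to 0.10) and 0.017 for Zbtb17 (adjusted p = 0.935). Miz1 is an older symbol of both Zbtb17 and Pias2, and Pias2 stood at 46.1 ± 3.95 CPM in new AML and 47.7 ± 6.62 CPM in aggressive AML (adjusted p = 0.798).

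The coactivators of MYC mostly showed small differences, with 1 of 12 called beside 18.4% of all genes. Wdr5, an adaptor that helps MYC bind chromatin, rose by 0.27 on the log2 scale (adjusted p = 0.0238), from 134 ± 9.59 to 162 ± 6.50 CPM, and lost its call in 4 of the 8 fits that leave out 1 library, those without new AML replicates 2 or 4 or aggressive AML replicates 1 or 2 (adjusted p up to 0.0786). Hcfc1 (log2 fold change -0.020) and Ep400 (log2 fold change -0.058), the most abundant of the list, did not pass the test.

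Of 14 SIN3 corepressor genes, through which the MXD proteins act, 1 rose and 1 fell, beside 8.15% of all genes called higher and 10.2% called lower. Ing2, a subunit that reads a histone mark of active promoters, measured 28.8, 24.9, 25.4 and 23.0 CPM in new AML and 39.3, 36.3, 42.9 and 28.9 CPM in aggressive AML, and rose by 0.53 on the log2 scale (adjusted p = 0.0103). Arid4a, a further subunit, fell by 0.39 (adjusted p = 0.0147), from 89.4 ± 6.35 to 68.1 ± 9.48 CPM, and lost its call without new AML replicate 2 (adjusted p = 0.0517). Sin3a and Sin3b, the scaffolds, were not among the called genes.

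Of 16 genes that bind the MYC protein or set its stability, 0 rose and 2 fell, a share close to the 10.2% of all genes called lower. Bin1, which encodes a protein that binds MYC and restrains it, measured 69.5, 75.2, 70.3 and 69.2 CPM in new AML and 50.01, 54.7, 50.2 and 48.6 CPM in aggressive AML. Its groups lay far apart beside their spread, with a log2 fold change of -0.48 (adjusted p = 0.00092), and it was called in all 13 alternatives. Skp2, a ubiquitin ligase subunit that acts on MYC, fell by 0.35 (adjusted p = 0.0428), but lost its call in 7 of the 8 fits that leave out 1 library, the exception being that without aggressive AML replicate 4 (adjusted p up to 0.121). Huwe1, a further ligase of MYC, did not pass the test at a log2 fold change of -0.0071 (95% interval -0.16 to 0.14).

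Of the 10 partners of MGA in PRC1.6, 1 was called, beside 18.4% of all tested genes. Yaf2 rose by 0.42 on the log2 scale (adjusted p = 0.0141), from 29.9 ± 2.55 to 40.1 ± 4.10 CPM, and lost its call without new AML replicate 2 (adjusted p = 0.0548). Of 17 germline genes that this complex is known to keep silent, 5 were tested. Of these 1 rose and 1 fell, beside 8.15% of all genes called higher and 10.2% called lower. Stag3, a meiotic cohesin subunit, measured 80.6, 84.1, 87.6 and 81.4 CPM in new AML and 183, 191, 237 and 199 CPM in aggressive AML, a rise of 1.28 on the log2 scale (adjusted p = 2.15e-07). Ddx4, a germ cell RNA helicase, measured 16.1, 24.5, 14.9 and 26.3 CPM in new AML and 6.15, 5.42, 7.39 and 8.31 CPM in aggressive AML, and fell by 1.58 (adjusted p = 0.000108). For Stag3 and Ddx4 the groups did not overlap, as for 21.8% of all tested genes. These 2 genes moved in opposite directions, while the Mga level itself overlapped between the groups.

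Among the classical targets that MYC is known to activate, genes of the nucleolus, where ribosomes are made, rose more often than they fell. Of 38 tested, 8 rose and 0 fell, beside 8.15% of all genes called higher, and 34 had a log2 fold change above 0, with a median of 0.16. Pes1, a subunit of the complex that matures the large ribosomal subunit, measured 156, 149, 173 and 153 CPM in new AML and 213, 200.4, 197 and 183 CPM in aggressive AML, a rise of 0.33 (adjusted p = 0.00729). Wdr43, a factor of the small subunit, rose by 0.29 (adjusted p = 0.0111), from 164 ± 7.69 to 201 ± 11.6 CPM. Ncl, which encodes nucleolin, the most abundant gene of the list, rose by 0.27 (adjusted p = 0.0391), from 1389 ± 162 to 1673 ± 94.4 CPM. Nop58, a core protein of small nucleolar RNPs, rose by 0.32 (adjusted p = 0.0188), and Wdr74 by 0.30 (adjusted p = 0.0488). Imp4, a factor of small subunit processing, rose by 0.29 (adjusted p = 0.0314), from 88.0 ± 6.08 to 107 ± 9.51 CPM, and Ddx21, a nucleolar RNA helicase, by 0.25 (adjusted p = 0.0417).

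The called number of nucleolar genes moved with the libraries used, from 8 to 5 without new AML replicate 1, 2 without new AML replicate 2, 2 without new AML replicate 4, 3 when aggressive AML replicate 1 was left out and 2 when replicate 2 of that group was left out. The number called among all genes in these fits was 1760, 1466, 1591, 1771 and 1728, against 2296 with all libraries. Ncl lost its call in 6 and Wdr74 in 5 of the 8 fits that leave out 1 library, and Nop58 in 3. Pes1 and Wdr43 were called in all 13 alternatives. In aggressive AML replicate 3, the library lowest in Myc, 31 of the 38 genes were below the mean of the other aggressive AML libraries, with a median log2 difference of -0.13. Of all tested genes 6337 of 12494 were below that mean, with a median of -0.0044. The E-box was found in 9 of the 32 nucleolar genes with a promoter entry (28.1%), against 12% of the genes of the table, among them Pes1, Wdr43 and Imp4, whose sequences are printed above.

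Genes of metabolism that MYC is known to activate behaved in a like manner, with 7 of 26 higher and 0 lower (all genes 8.15% and 10.2%), 20 above 0 and a median log2 fold change of 0.14. Odc1, the first enzyme of polyamine synthesis and a textbook MYC target, measured 146, 126, 179 and 114 CPM in new AML and 238, 224, 243 and 186 CPM in aggressive AML. It rose by 0.66 (adjusted p = 0.00182) with no overlap between the groups. Impdh1, an enzyme of guanine nucleotide synthesis, rose by 0.55 (adjusted p = 0.0220), Slc3a2 and Slc7a5, which form an amino acid transporter, by 0.52 (adjusted p = 0.0141) and 0.47 (adjusted p = 0.0303), and the lactate dehydrogenase gene Ldha by 0.42 (adjusted p = 0.0168). Odc1 was called in all 13 alternatives, while of the 8 fits that leave out 1 library Impdh1 and Slc7a5 lost their calls in 3, Slc3a2 in 2 and Ldha in 1. The number of called genes of the list was 4 without new AML replicate 2 and 3 without new AML replicate 4 or aggressive AML replicate 2. In these fits 1466, 1591 and 1728 of all genes were called, against 2296 with all libraries. In aggressive AML replicate 3, 22 of the 26 were below the mean of its group's other libraries (median log2 difference -0.15), and the E-box was found in 6 of 22 promoters (27.3%).

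Of 14 tested targets of cell cycle and growth 1 rose and 1 fell, beside 8.15% of all genes called higher and 10.2% called lower. A log2 fold change above 0 was found for 9 of the 14, with a median of 0.075. Apex1, a DNA repair enzyme, rose by 0.28 (adjusted p = 0.0415), and E2f2, a cell cycle transcription factor, fell by 0.47 (adjusted p = 0.0455) with aggressive AML replicate 3 lowest at 35.1 CPM. Both calls were lost in most fits that leave out 1 library, 6 of 8 for Apex1 and 7 of 8 for E2f2, and the E-box was found in 5 of 13 promoters (38.5%). Of 13 proliferation markers 1, Mki67, passed the test and was lower, and the median log2 fold change of these markers was 0.012.

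Of 9 tested genes that MYC is known to repress, 0 rose and 2 fell, beside 10.2% of all genes called lower. Tob1, an antiproliferative gene, measured 8.21, 10.3, 11.4 and 8.03 CPM in new AML and 5.78, 5.07, 4.41 and 4.78 CPM in aggressive AML, and fell by 0.92 on the log2 scale (adjusted p = 0.00429) with no overlap. Ndrg1, a gene of differentiation and hypoxia, fell by 0.36 (adjusted p = 0.0432) and lost its call in 6 of the 8 fits that leave out 1 library. Cebpa, the master regulator of granulocytes, did not pass the test at a log2 fold change of -0.10 (95% interval -0.36 to 0.16). The E-box was found in 0 of 7 promoters of this list. In aggressive AML replicate 3, 6 of the 9 genes were below the mean of its group's other libraries (median log2 difference -0.051). The same held for 9 of 14 growth targets (-0.086), 10 of 16 MYC stability genes (-0.026), 6 of 14 SIN3 corepressors (0.087) and 4 of 12 coactivators (0.045). These comparisons rest on the library chosen for its Myc level and were not tested.

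**Figure D5:**
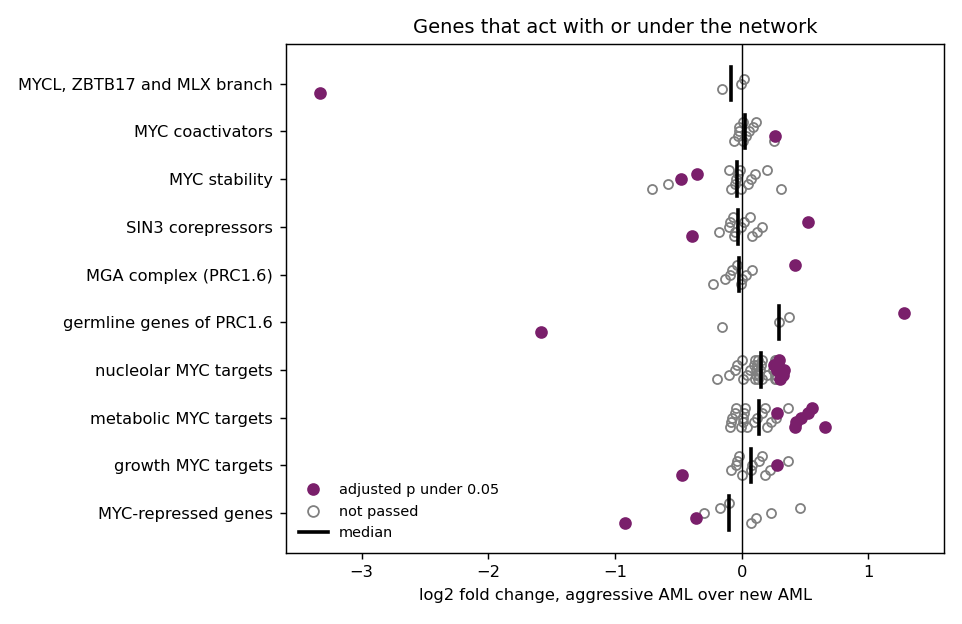
Log2 fold change of aggressive AML over new AML (horizontal axis) for each tested gene of 10 lists of genes that act with or under the network (rows), with filled points for an adjusted p under 0.05, open points for the rest and a black line at the median of each list. The nucleolar and metabolic targets lie mostly right of 0 (medians 0.16 and 0.14), and the point at -3.33 is Mycl.

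Markers of mature neutrophils, a stage at which Myc is known to be low and Mxd1 high, were mostly lower in aggressive AML. All 11 were in the table, and their summed level was 328 to 495 CPM in new AML and 169 to 220.5 CPM in aggressive AML. Of the 11, 8 were called lower, beside 10.2% of all tested genes. Lcn2 (log2 fold change -0.32), Cxcr2 (-0.61) and Ly6g, which went the other way (0.31), did not pass the test. Erythroid markers (9 of 10 in the table) summed to 32.7 to 118 CPM in new AML and 10.8 to 56.03 CPM in aggressive AML. Of 8 tested erythroid markers 3 were called lower, beside the same 10.2% of all genes. The macrophage markers (4 of 7) summed to 207 to 249.96 and 156 to 207 CPM. None of the 5 T cell markers had a row, B cell markers had 3 of 5, NK cell markers 1 of 5 and megakaryocyte markers 1 of 5, with the defining T cell and NK cell genes Cd3e and Ncr1 among those without a row. The B cell sum was 36.6 to 42.2 CPM in new AML and 30.6 to 33.7 CPM in aggressive AML, and the megakaryocyte sum 4.69 to 8.58 and 2.17 to 5.44 CPM. The 1 NK cell marker with a row, Nkg7, was called higher in aggressive AML (log2 fold change 0.70, adjusted p = 0.0225), at 11.1 to 22.2 against 19.96 to 29.9 CPM. The part of these cells in the differences of the network genes was not tested, and in bulk RNA fewer cells of a type and less RNA per cell cannot be told apart.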

How the data were processed

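The authors aligned paired reads of polyadenylated RNA to mm10 with HISAT2, counted them per gene, and left out genes of low expression. Although the deposited table is named for CPM, its values are whole numbers with unequal totals and were used as raw counts. Names were matched exactly as written. A gene was tested if 4 or more of the 8 libraries reached 1 CPM, which left out 329 rows. The main test was the quasi-likelihood test of edgeR 4.0.16 (R 4.3.3) with TMM factors (0.986 to 1.01), group as the only term, two-sided, with Benjamini-Hochberg adjustment over all genes. CPM values use TMM-scaled library sizes. Alternatives were RLE factors, no filter, DESeq2 1.42.0, limma 3.58.1 on log2(CPM + 1), a replicate block and leaving out each library. The members and lists were chosen with earlier results of these data known. Of each list, the called genes with the largest change (up to 4) and the 2 most abundant genes were named, and for Myc the 5 genes nearest in pattern. Of the abundant genes that this rule covers, Tfdp1, Cbx3, Hspd1 and Eif4g1 are named only below. Rbbp4 (log2 fold change 0.064), Rbbp7 (0.12), Aurka (0.11), Pa2g4 (0.11), Cdk4 (0.14) and Fth1 (-0.17), which this rule also covers, did not pass the test and are named only here. Zbtb17, Pias2, Imp4, Ddx21, Prelid1, Sin3a, Sin3b, Nkg7, Mki67 and the identity markers were named outside this rule, after their values were seen. Gene positions and exon lengths came from GENCODE (GRCm38), and promoters from RefSeq. Replicates differed beyond sampling noise (chi-square per degree of freedom 4.12 to 11.2).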

Additional observations from a re-analysis of the deposited data

Results flagged for a closer look

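Among 94 values checked for a sample far from the others of its group, 1 was found, which chance gives for about 1 in 20 groups. In aggressive AML, Mycl was 1.04 CPM in replicate 3 and 0.228 to 0.361 CPM in the other 3 libraries, and the gap to the nearest library was 0.835 of the range of the group, above the 95% critical value of Dixon's test for 4 samples. The value rests on 8 reads.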

How the results depend on the processing

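The lower Myc level without aggressive AML replicate 3 kept its call in all 5 alternatives of processing, with log2 fold changes of -0.37 to -0.35 and adjusted p of 0.00578 to 0.0296. No further library was left out of this fit. How far its call rests on aggressive AML replicate 1, at 131 CPM beside 176 and 174 CPM in replicates 2 and 4, was not tested. When each library was left out in turn, the number of called members other than Myc was 1 to 2, and that of the listed genes was 12 to 33. Among all genes 1466 to 2324 were called in these fits, against 2296 with all libraries. By list the lowest and highest numbers were 0 and 2 for coactivators, 1 and 2 for SIN3 corepressors, 1 and 2 for MYC stability, 0 and 1 for MGA partners, 2 and 12 for nucleolar targets, 3 and 7 for metabolic targets, 0 and 3 for growth targets, and 1 and 3 for repressed genes. Log2 fold changes that crossed 0 on leaving out a library ran from -0.0895 to 0.15 for Mnt, -0.0673 to 0.0870 for Mlx, -0.0541 to 0.0111 for Hcfc1, -0.0419 to 0.0229 for Huwe1, -0.0622 to 0.0266 for Tfdp1, -0.0016 to 0.13 for Cbx3, -0.15 to 0.0162 for Hspd1, -0.0385 to 0.0407 for Eif4g1 and -0.19 to 0.0346 for Cebpa, none of which was called. Mycl, whose range was added after seeing the data, ran from -4.02 (without aggressive AML replicate 3, where the others hold 2 or 3 reads and the fitted fold depends on the prior count) to -3.09, and was -1.95 in limma, whose added 1 CPM compresses low levels. Of 47 genes followed, 20 kept direction and call in all 13 alternatives. The cause of the other changes was not tested.

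The replicate numbers did not pair the samples, as deviations of same-numbered libraries correlated at 0.0967, -0.0399, -0.0654 and 0.204. With the replicate block, 2 members other than Myc and 2367 of all genes were called, and of the followed genes Wdr74 lost its call (adjusted p = 0.0502). Depth limits the fold of Mycl, which had 2 to 8 reads per aggressive AML library.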
